A study of Mus musculus with 4 samples.

Results

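The 10 genes examined here for CTCF binding in mouse testis were listed as spermatogonial stem and progenitor genes. They were Zbtb16, Kit, Foxo1, Gfra1, Ret, Id4, Nanos2, Nanos3, Lin28a and Sall4. They were 10 of the 21523 protein-coding genes annotated on the autosomes and X, and each lay on a different chromosome. A CTCF peak was assigned to a gene when its summit, the base of highest enrichment, lay inside the gene or within 50 kb of either end. By this rule 50 of the 51871 deposited peaks belonged to the 10 genes. The peaks came from chromatin immunoprecipitation and sequencing of whole testes of F1 mice from a B6 by CAST cross, and no treatment, age or cell sorting is given in the labels. The series has 2 immunoprecipitated (IP) samples and 2 input samples, and which IP samples entered the peak list was not settled. Both kinds of sample came from frozen testes that were fixed on thawing. The values used are those of 1 merged peak list, so they carry no spread between animals, the read depth is unknown, and no test between groups was possible. Each peak's fold (enrichment at the summit over background) and −log10 q were computed by the authors. Spermatogonia are one of many cell types in a whole testis, and a peak shared by all cells could not be told apart from one of a subset. No expression was measured, so the label of these genes as stem and progenitor genes was not checked against the data.

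Spermatogonial stem cells sit at the basement membrane of the seminiferous tubule and either renew themselves or give rise to progenitors that differentiate and enter meiosis. Self-renewal depends on GDNF, a growth factor from somatic cells that acts through the co-receptor GFRA1 and the receptor tyrosine kinase RET. Transcription regulators (ZBTB16, also called PLZF, FOXO1, SALL4 and ID4) and RNA-binding proteins (NANOS2, NANOS3 and LIN28A) act in the undifferentiated cells, and the receptor KIT marks the switch to differentiation. CTCF is a zinc-finger protein that binds a long, directional DNA motif and, with cohesin, anchors chromatin loops.

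Every one of the 10 genes had at least 1 CTCF peak in its window, but so did 89.8% of all protein-coding genes. The number of peaks ran from 1 at Kit to 8 at Nanos2, with a median of 5.5, against a median of 5 over all protein-coding genes. Windows grow with the gene, so the counts were also expressed per Mb. The median density was 38.3 summits per Mb, close to the 36.6 of all protein-coding genes, and 4 of the 10 genes were below that value. In ascending order the densities were 5.50 per Mb at Kit, 12.5 at Gfra1, 20.5 at Ret and 21.1 at Zbtb16. They continued with 38.1 at Id4, 38.5 at Foxo1, 43.2 at Lin28a, 50.5 at Sall4, 58.4 at Nanos3 and 78.9 at Nanos2. Kit was at percentile 11.3 of all protein-coding genes and Nanos2 at percentile 86.2. With every deposited peak counted, the 3 receptor genes and Zbtb16 were thus below the median of all genes in density. By count Zbtb16, with 6 peaks, was above the median of 5. These genes are also long, at 220 kb for Gfra1, 184 for Zbtb16, 81.7 for Kit and 46.0 for Ret. Foxo1, at 81.8 kb, was not below the median. Within gene bodies alone the median density of all protein-coding genes was 10.9 per Mb. Whether the low densities follow gene length was not tested. The order changed among peaks with a fold of at least 5: Lin28a then had 0 peaks, Nanos2 3 of 8 and Sall4 4 of 6, while Foxo1 kept 7 of 7 and Id4 4 of 4. In all, 34 of the 50 peaks passed. Most deposited peaks pass too, since the fold of all peaks had a lower quartile of 4.74 and a median of 6.82. Among passing peaks the densities were 38.5 per Mb at Foxo1, 38.1 at Id4, 33.7 at Sall4 and 29.6 at Nanos2. Nanos3, with 6 of 6, was the densest at 58.4. The median of such densities was 21.8 over the 10 genes and 25.7 over all protein-coding genes. Zbtb16, Ret, Gfra1, Kit and Lin28a, from 14.1 down to 0, lay below the latter. Ret and Zbtb16, and likewise Id4 and Foxo1, differed by less than the 1 peak that a count can resolve in such windows.

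**Figure D1:**
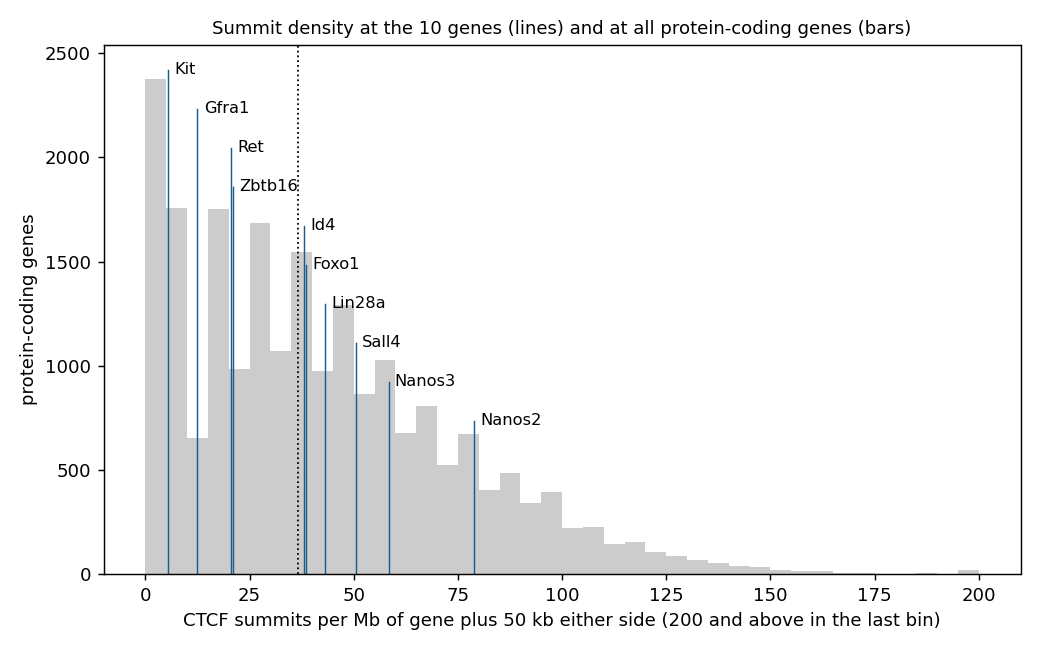
Histogram of CTCF summits per Mb of gene plus 50 kb either side (x axis) over 21523 protein-coding genes (y axis, number of genes), with the 10 genes as labelled lines and the median of all genes (36.6) dotted. The genes spread from 5.50 per Mb at Kit to 78.9 at Nanos2, on both sides of the median.

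Summits within 1 kb of an annotated gene end were found at 4 of the 10 genes (40%, exact Clopper-Pearson 95% interval 12.2 to 73.8, counting error only), next to 39.1% of all protein-coding genes. The 4 were Foxo1, Id4, Zbtb16 and Kit. At Foxo1 the summit lay 85 bp past the transcription start, with a fold of 7.22, and at Id4 it lay 125 bp before the start, with a fold of 6.54. Zbtb16 had a summit 303 bp beyond its upper-coordinate end, with a fold of 7.29, and Kit had one 788 bp inside its start, with a fold of 7.08. These 4 folds lie within a narrow range around the median of all peaks, 6.82. None of the 4 peaks had a −log10 q at or above the list's median of 29.5. They ran from 15.9 at Id4 through 18.6 at Kit and 21.9 at Zbtb16 to 22.2 at Foxo1. In the other 6 genes the nearest summit to an end was 1.18 kb away at Nanos2, 1.45 kb at Gfra1, 2.08 kb at Sall4, 2.45 kb at Lin28a, 2.48 kb at Ret and 11 kb at Nanos3. A window of 2.5 kb therefore takes in 9 of the 10 genes (90%, exact 95% interval 55.5 to 99.7, counting error only). It takes in 51.1% of all protein-coding genes, and Lin28a and Ret fall only just within it. A window of 500 bp takes in 3 of the 10, next to 31.4%.

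RefSeq promoter windows (GRCm38.p6, 250 bases before to 50 after a start) were at hand for 7 of the genes, and Zbtb16, Ret and Sall4 had no entry. A deposited peak overlapped the promoter window of 2 of these 7, Id4 and Foxo1, next to 32.0% of 17274 protein-coding genes with an entry. The CTCF core motif, taken as 12 positions (CC, any 3 bases, AG, A or G, G or T, GGC) on either strand, occurred in the window of 1 of the 7, Id4, next to 4.30% of all such genes. Among all genes whose window overlapped a peak the core was present in 9.54%, and among the others in 1.83%. The last 7 positions alone, AGNNGGC with A or G and then G or T in place of the N letters, are a looser match contained in every core match. They occurred at Id4, Kit, Gfra1, Nanos2 and Lin28a, 5 of the 7 genes, next to 33.2% of all genes. The 250 bases before the start of Id4 and Foxo1 are shown because a peak overlaps these promoter windows. The Id4 peak (48260805 to 48261521) covers the whole stretch shown. The Foxo1 peak (52268241 to 52269237) covers only the last part of its stretch. Both genes are read from the plus strand, and capitals mark matches to the last 7 positions on either strand. The sequences are from RefSeq, for Id4 chr13:48260866-48261115 and for Foxo1 chr3:52268087-52268336.
Id4: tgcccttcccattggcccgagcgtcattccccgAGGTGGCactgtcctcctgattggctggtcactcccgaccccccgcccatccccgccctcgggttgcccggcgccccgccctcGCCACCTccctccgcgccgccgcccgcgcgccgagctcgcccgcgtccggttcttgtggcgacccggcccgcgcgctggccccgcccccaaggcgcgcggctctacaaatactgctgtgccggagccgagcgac
Foxo1: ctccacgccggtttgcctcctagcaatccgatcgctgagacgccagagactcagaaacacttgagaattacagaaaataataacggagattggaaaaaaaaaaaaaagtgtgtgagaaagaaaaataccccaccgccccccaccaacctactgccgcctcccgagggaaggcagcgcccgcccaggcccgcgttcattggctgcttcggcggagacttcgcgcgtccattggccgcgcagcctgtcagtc

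The Id4 promoter held a pair of these short matches in opposite directions. The first, on the plus strand, is part of the full core, and the middle of that core lay 92 bp from the summit. The second, read on the minus strand, had its middle 6 bp from the summit at position 48260991. In the Foxo1 window no match to these letters was found, and the summit, at 52268422, lay beyond the end of the window. The Kit match lay 962 bp and the Gfra1 match 912 bp from the nearest summit, outside the peaks. At Nanos2 and Lin28a the matches lay 2599 and 5585 bp from a summit.

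The strongest CTCF peaks of Gfra1 and Ret lay deep inside the gene, and the only peak of Kit lay near its start. Gfra1, the co-receptor that binds GDNF, spans 220 kb on chromosome 19 (58235581 to 58455946) and held 3 of its 4 summits in its body. The strongest, at 58364588, had a fold of 14.3 at a −log10 q of 68.7, which put it at percentile 96.4 of the fold of all peaks. Another in the body, at 58313946, had a fold of 8.58 at a −log10 q of 71.1. Both were nearest to the ends of Gm46650, a predicted gene that lies within Gfra1. Near the start the gene had only a weak peak, with a fold of 2.93 at a −log10 q of 2.52, 897 bp from the RefSeq start of its promoter entry. The fourth lay 13.7 kb upstream, with a fold of 6.28.

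Ret, which encodes the kinase that transmits the GDNF signal, spans 46.0 kb on chromosome 6 (118151748 to 118197744) and had 3 summits. The strongest lay inside the gene, 17.9 kb from its upper end, with a fold of 9.42 at a −log10 q of 72.6. A second inside peak, 2.48 kb from that end, had a fold of 4.53. The third, with a fold of 5.50, lay 12.7 kb below the gene and only 106 bp from an end of the neighbouring gene Csgalnact2. Kit, the receptor for stem cell factor, spans 81.7 kb on chromosome 5 (75574987 to 75656722), and its summit 788 bp from the start, at 75575775, was the only one in 182 kb. The next summits lay 75.1 kb below and 79.8 kb above the gene.

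The transcription regulators differed in where their peaks lay. Zbtb16, a zinc-finger repressor needed to maintain the stem cell pool, spans 184 kb on chromosome 9 (48651797 to 48836225) and had no summit inside. Of the 1100 protein-coding genes as long or longer, 5.18% had none, a length class chosen after the value was seen. Its 6 peaks flanked the gene, 3 on each side. Those below had folds of 4.27, 8.34 and 6.86 at 45.9, 32.9 and 5.40 kb, and those above had folds of 7.29, 4.57 and 6.31 at 0.303, 1.14 and 24.5 kb. The peak 5.40 kb below the gene was the widest of the 50, at 2797 bp, with a −log10 q of 61.0.

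Foxo1, a forkhead factor required for stem cell maintenance, had all 7 of its summits at or upstream of the start (chromosome 3, 52268337 to 52350109). From the farthest to the nearest, the 6 upstream summits lay 25.7, 24.5, 21.7, 14.3, 10.48 and 5.76 kb before the start. Their folds in the same order were 11.98, 7.62, 6.94, 9.17, 9.06 and 7.09. The 4 farthest lay inside Gm30125, a long noncoding RNA gene. No other protein-coding gene reached into the window of Foxo1, and all 7 folds were above the list's median of 6.82.

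Id4 encodes an inhibitor of DNA binding whose expression is used to mark stem cells. It is short (4.91 kb, chromosome 13, 48261116 to 48266028) and also had no other protein-coding gene in its window. Its 4 summits lay 23.5, 5.89 and 0.125 kb upstream and 7.87 kb downstream, with folds of 10.02, 8.43, 6.54 and 8.50. The 3 upstream summits were inside the long noncoding RNA gene A330033J07Rik. Sall4, a zinc-finger factor of undifferentiated germ cells, spans 18.9 kb on chromosome 2 (168748332 to 168767201). Its strongest peak, with a fold of 11.5 at a −log10 q of 42.6, lay inside the gene, 2.08 kb from its upper end. The other 5 lay below it at 28.4, 9.28, 6.67, 5.43 and 3.73 kb, with folds of 4.47, 4.55, 5.30, 6.11 and 10.02, and each was nearer to an end of Atp9a than to Sall4.

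**Figure D2:**
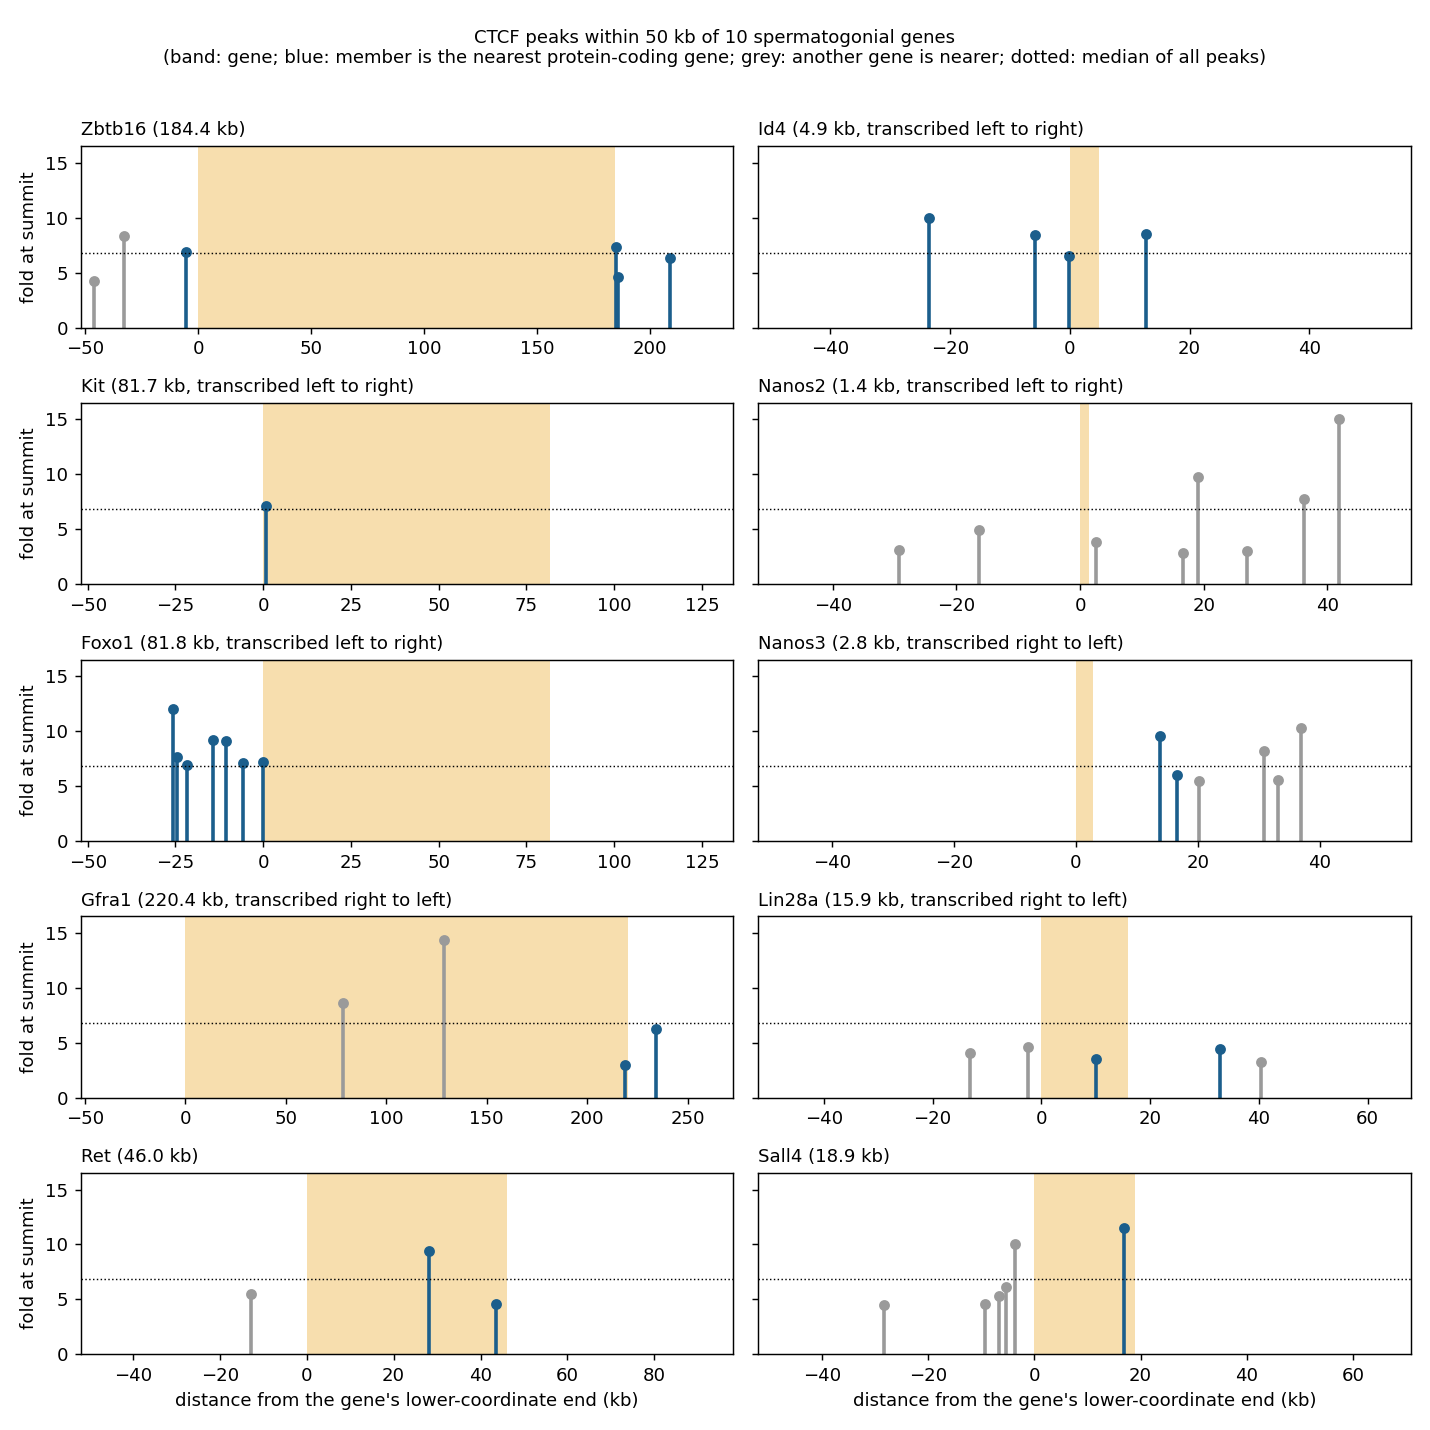
CTCF peaks at each of the 10 genes: x axis, distance of the summit from the gene's lower-coordinate end in kb; y axis, the authors' fold at the summit; band, the gene; blue, peaks whose nearest protein-coding gene end belongs to the named gene; grey, peaks nearer to an end of another gene; dotted line, the median fold of all peaks (6.82). Zbtb16 is flanked but empty, Foxo1 has its peaks at and before its start, Kit has 1 peak, and all 8 peaks in the Nanos2 window are nearer to ends of other genes.

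Of the 19 peaks in the windows of the 3 genes for RNA-binding proteins, 4 had an end of the listed gene as the nearest protein-coding gene end. Nanos2, which holds male germ cells in the undifferentiated state, is a gene of 1.44 kb on chromosome 7 (18987524 to 18988962). Of its 8 peaks none had an end of Nanos2 as the nearest protein-coding gene end, since ends of Nova2, Mypop, Irf2bp1, Foxa3 and Sympk shared the window. The closest, 1.18 kb past its end, had a fold of 3.87 at a −log10 q of 4.93. The strongest of the 50 peaks was in this window, 40.5 kb downstream and inside Sympk, with a fold of 15.03 at a −log10 q of 63.8. The other 6 folds ran from 2.81 to 9.79.

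Nanos3, needed for germ cell survival, spans 2.82 kb on chromosome 8 (84173733 to 84176552), and all 6 of its summits lay upstream, from 11 to 34.1 kb before the start. Their folds from near to far were 9.58, 5.96, 5.47, 8.23, 5.54 and 10.3. The first 2 had an end of Nanos3 as the nearest protein-coding gene end. The last, with a −log10 q of 77.6, the highest of the 50, lay 294 bp from an end of Zswim4. Lin28a, which blocks the maturation of let-7 microRNAs, spans 15.9 kb on chromosome 4 (134003330 to 134019196) and had both the lowest median fold (4.07) and the lowest maximum fold (4.60) of the 10 genes. Its 5 folds were 4.07, 4.60, 3.49, 4.38 and 3.20, and the highest was at percentile 23.3 of all peaks. The peak with a fold of 4.60 lay 72 bp from an end of Dhdds. A single summit, with a fold of 3.49, was inside Lin28a.

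Across the 50 peaks, 9 lay inside their gene and 41 outside, and at least 1 inside summit was found at 6 of the 10 genes, next to 53.1% of all protein-coding genes. For 25 of the 50 the nearest protein-coding gene end belonged to the listed gene, and for 25 to another gene. The median fold was 7.09 in the former set and 5.47 in the latter. Only distances to ends were used, so the Gfra1 summits with folds of 14.3 and 8.58 fell in the latter set although they lay inside Gfra1. In the 7 genes with a known strand, 20 summits lay upstream, 9 downstream and 6 inside. Foxo1 and Nanos3 gave 12 of these upstream summits, and the other 5 genes had 8 upstream and 9 downstream. These splits of peaks by position and by nearest end were not counted over all protein-coding genes. They therefore cannot be read as a trait of the listed genes.

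The stretches without a summit around these genes were long about as often as elsewhere. Between neighbouring summits of the autosomes and X the median distance was 18.1 kb, and 10.9% of 51610 stretches were 100 kb or longer. Of 60 stretches touching the 10 windows, 6 were that long. They touched 5 of the 10 genes, next to 42.9% of all protein-coding genes. The longest, 280 kb, began at the summit at the Foxo1 start and ran through the gene to 198 kb beyond it. At Id4 the 4 peaks formed an island, with 222 kb free of summits below it and 191 kb above it. Gfra1 adjoined a stretch of 195 kb that took in its lower-coordinate part, and the whole of Zbtb16 lay in one of 190 kb. Beyond the summit at the Kit start no other followed for 161 kb. The longest stretch at each of Ret, Nanos3, Sall4, Lin28a and Nanos2 was between 47.8 and 80.2 kb.

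The strength of the 50 peaks was close to that of the whole list. Their median fold was 6.70 (order-statistic 95% interval 5.47 to 7.72), against 6.82 for all peaks, and their median −log10 q was 26.6 against 29.5. Of the 50 peaks, 7 had a fold of 10 or more (14%, exact 95% interval 5.82 to 26.7), next to 19.6% of all peaks. Such a peak was found at 6 of the 10 genes, next to 57.8% of all protein-coding genes. Sall4 had 2 of them, Foxo1, Gfra1, Id4, Nanos2 and Nanos3 had 1 each, and Kit, Ret, Zbtb16 and Lin28a had none. The intervals in this paragraph treat the 50 peaks as independent, although they are grouped in 10 gene windows. They do not measure a spread between genes or between animals.

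Fold and −log10 q ordered the peaks largely alike, with a Spearman's rho of 0.819 over the 50 peaks and 0.854 over all peaks, and width followed −log10 q more closely than fold. The rho between width and −log10 q was 0.854 over the 50 peaks and 0.843 over all peaks, and between width and fold it was 0.562 and 0.584. These are descriptions across peaks of 1 list, which share its libraries and depth. A width of at least 1 kb was reached by 10 of the 50 (20%), against 16.6% of all peaks. At Lin28a a peak 1745 bp wide had a fold of 4.38 at a −log10 q of 41.1, and one 279 bp wide had a fold of 4.60 at a −log10 q of 7.72. At Sall4 the peak 1532 bp wide had a fold of 6.11 at a −log10 q of 56.9, while one of 548 bp had a fold of 10.02 at a −log10 q of 33.7. By −log10 q the leading peaks were those of Nanos3, at 77.6, and of Nanos2, at 77.4, the latter with a fold of 9.79.

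**Figure D3:**
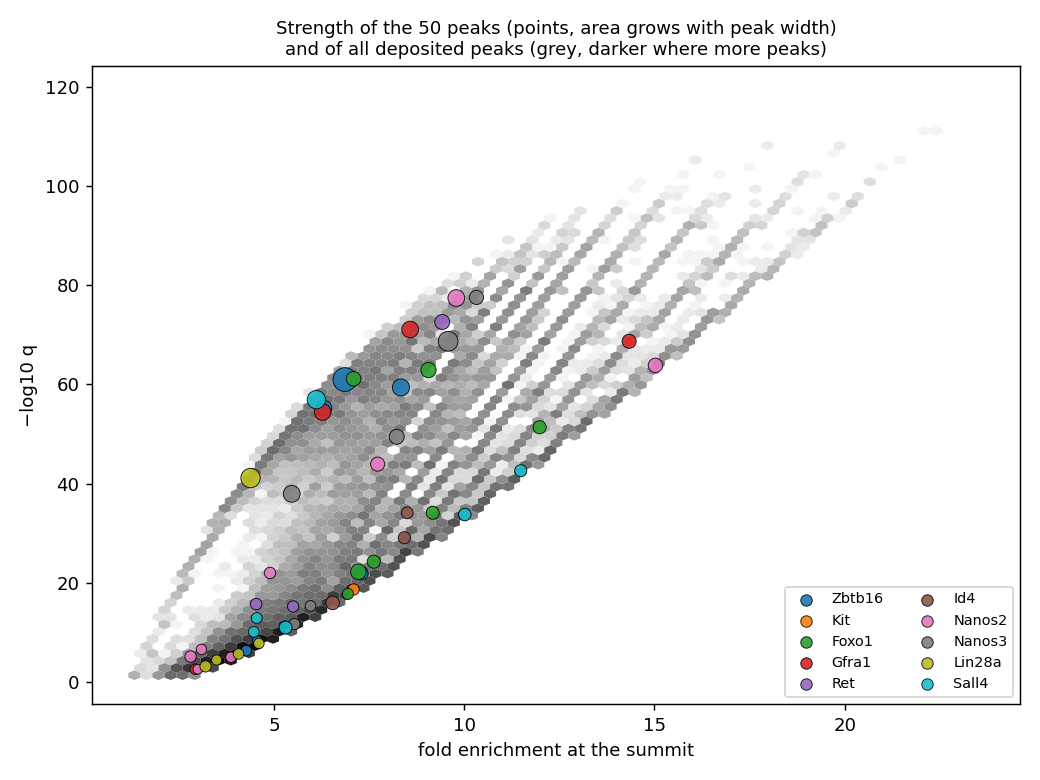
Fold at the summit (x axis) against −log10 q (y axis) for the 50 peaks, coloured by gene with an area that grows with peak width, over all 51871 peaks in grey. Wide peaks such as that of Lin28a with a fold of 4.38 at a −log10 q of 41.1 lie along the upper edge, and narrow ones along the lower edge.

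The 45 other genes listed for comparison included paralogs of the 10 genes and the ligands Gdnf and Kitl. With every deposited peak counted, they had CTCF summits in the window, within 1 kb of a gene end and inside the gene about as often as all genes. All 45 had a summit in the window, next to 89.8% of all protein-coding genes, with 1 to 14 peaks each and a median of 5. A gene-end summit was found at 16 of them (35.6%), next to 39.1% of all protein-coding genes, and a summit inside at 24 (53.3%), next to 53.1%. Among peaks with a fold of at least 5 the gene-end count was 8 of 45 (17.8%), next to 23.7%. Within 500 bp of an end, with every deposited peak counted, it was 10 of 45 (22.2%), next to 31.4%. Within 2.5 kb it was 22 of 45 (48.9%), next to 51.1%. The highest gene-end folds were 13.1 at Thy1, which encodes a surface protein used to enrich stem cells, 10.1 at Foxo3 and 8.95 at Egr4. The genes for the ligands of GFRA1 and KIT each had a single peak in the window. Gdnf had its summit inside the gene, with a fold of 10.7, and Kitl, encoding the ligand of KIT, had a fold of 4.74 at 1.02 kb from an end. The Kitl density of 5.41 per Mb was next to the 5.50 of Kit.

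Paralogs of the 10 genes did not share one pattern. Gfra2, Gfra3 and Gfra4 had 3, 4 and 1 peaks with highest folds of 10.8, 9.46 and 6.67, all without a gene-end summit. Foxo3 had 8 peaks and a gene-end summit, and Foxo4, on X, had 2 peaks and none at an end. Of the Id genes, Id2 had a gene-end summit like Id4, with a fold of 3.07 at 34 bp, and Id1 and Id3, with 8 and 11 peaks, did not. Lin28b, with 6 peaks, had a gene-end fold of 8.53, above every fold at Lin28a. Nanos1 had 2 peaks, the nearest 25.5 kb from an end. Sall1, Sall2 and Sall3 had 1, 6 and 4 peaks with highest folds of 3.87, 7.84 and 6.47, all below the 11.5 of Sall4.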

How the data were processed

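CTCF binding was measured in whole mouse testes (2 IP and 2 input samples). The authors deposited 1 merged peak list. The submitters' processing notes name BWA 0.7.12, MACS2 2.2.7 and mm10 but give no roles. Its peak names carry bio2 and merged, so which IP samples entered it was not settled. For each peak the authors deposited a fold enrichment (a ratio) and a −log10 q, and also a score that was 10 times the −log10 q to within 1 for 100% of peaks and was not used. Depth is not given in the sources used here.

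Summits were placed against RefSeq genes of GRCm38.p6, whose coordinates are those of mm10 (Python 3.11.15, pandas 2.3.3, scipy 1.17.1). Gene starts below 3 Mb were left out as scaffold coordinates. Coordinates are 1-based, and strand came from the promoter table. Counts were set beside the same counts over all protein-coding genes or peaks, with no test, since the list has no replicates. Genes named were the 10, their paralogs, the ligands Gdnf and Kitl, and the 3 other listed genes with the highest gene-end fold. The genes, lists and rules were chosen with earlier results of these data known. Counting functions were tested on simulated data. Alternatives were other windows, stricter peaks, transcription starts only, −log10 q in place of fold and looser motifs.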

Additional observations from a re-analysis of the deposited data

How the results depend on the processing

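Of 29 alternatives to the main summary values, 14 counted as unchanged and 15 did not. Counts and densities had to stay within 1.5 times, and median folds within the interval of the median. With −log10 q as the measure, the median only had to lie on the same side of all peaks as the median fold. Windows set the number of peaks by construction: 94 with 100 kb either side and 9 in the gene bodies. There were 24 peaks in the stricter set with −log10 q no lower than the median and 25 whose nearest protein-coding gene end belonged to the listed gene, a choice added after the data were seen. Median density was 12.2 per Mb in gene bodies (10.9 for all protein-coding genes), 21.8 with fold at least 5 (25.7) and 14.8 with the stricter −log10 q (17.6), so the stricter sets put the 10 genes below all genes and not above, as did 100 kb either side (34.0 against 35.0), while 20 kb either side put them further above (50.8 against 36.9). Under the stricter −log10 q the median fold was 8.82, against 9.28 for all peaks. Gene-end summits numbered 9 of 10 at 2.5 kb and 0 of 10 with the stricter −log10 q, where all genes had 51.1% and 17.0%. They numbered 3 of 10 at 500 bp (all genes 31.4%) and 4 of 10 with fold at least 5 (all genes 23.7%). With transcription starts only, 4 of the 7 genes with a promoter entry had one (37.1% of all such genes). These were Foxo1, Id4, Kit and Gfra1, and Zbtb16 had no entry. Motif matches numbered 5 of 7 for the last 7 positions and 2 of 7 with 1 mismatch in the core (38.5% of all genes). For the 45 other listed genes, gene-end summits numbered 10 of 45 at 500 bp (22.2%, all genes 31.4%), 8 with fold at least 5 (17.8%, all genes 23.7%) and 6 with the stricter −log10 q (13.3%, all genes 17.0%), alternatives added after the data were seen. No paired analysis was possible because only a merged list without values of single samples was used, which also prevented leaving out replicates. With the depth unknown, weak sites that were missed cannot be counted, and an interval on 10 genes is too wide to show a modest difference.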

Other observations

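The peak with the highest fold in the whole list, 23.5, lay on the chromosome of Zbtb16, with its summit at 48467012. That is 185 kb below the gene, outside its window, and beyond the 3 peaks that flank Zbtb16 on that side.

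Peaks on different chromosomes can carry exactly the same values. The Id4 peak 23.5 kb upstream of the gene and the Sall4 peak 3.73 kb below the gene both have a fold of 10.0153 at a −log10 q of 33.7348, although their widths are 383 and 548 bp.

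The outermost summit within the 50 kb limit lay 45.9 kb from Zbtb16, and the first beyond it lay 52.4 kb from Ret.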
